A study of Mus musculus with 2 samples.

Results

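Dense clusters of open chromatin away from gene ends were described in nuclei of mouse hepatic stellate cells. Their members were chosen by the deposited peak lists themselves, from presence in both replicates and position. An entry of replicate A that overlapped an entry of replicate B by at least 1 bp counted as replicated, and a replicated peak more than 1 kb from both ends of every protein-coding gene counted as distal. Neighbouring distal peaks were chained where the gap between them was within a fixed limit, which let in gaps of up to 12492 bp, and a chain of 4 or more peaks was a cluster. This gave 236 clusters holding 1099 peaks, out of 14616 distal replicated peaks and 23452 replicated peaks in all. The clusters thus held 7.52% of the distal replicated peaks (95% Wilson interval 7.10 to 7.96%, counting error only). Clusters were ranked by the sum of the fold enrichment of their peaks in A, a linear ratio given by the authors' peak caller.

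The assay was ATAC-seq, where the transposase Tn5 cuts and tags DNA that is not shielded by nucleosomes, and the data were 2 samples, A and B, of 1 group. The mice were of strain C57BL6/JBomTac, healthy and fed chow. Both samples carried Gt(ROSA)26Sortm1(mCherry-Rpl10a-Flop)Kra and Tg(Lrat-cre)1Rshw, and nuclei were sorted on the mCherry-RPL10A that Lrat-cre switches on, so any cell with a history of Lrat-cre activity could enter the sort. No age is given in the labels, no condition was compared with another, and the labels do not say whether A and B are different animals, so their spread may be technical alone. List A held 36577 entries and list B 28794. The peak lists carry no read counts, so the depth of the libraries is unknown.

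Stellate cells are the pericytes of the liver sinusoid: they store retinyl esters made by LRAT and turn into matrix-producing myofibroblasts in injury. Distal open chromatin often marks enhancers, the short stretches where transcription factors bind and act on promoters at a distance. Groups of closely spaced enhancers are known from many cell types, commonly around genes that set a cell's identity. Peak lists show openness alone, so none of the clusters is called an enhancer here.

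Most member peaks hold no annotated start, and sequence was at hand only for those that do. RefSeq promoter windows (GRCm38.p6, which mm10 shares) overlapped 52 of the 1069 clustered peaks on the chromosomes the window table covers. Shown here are the upstream parts that the peaks cover at the protein-coding starts of 3 high-ranking clusters, at ranks 4, 7 and 26, because they show the DNA of the clusters where they meet a start. Of 2 Atp5d stretches, the shorter lies inside the longer, and the longer is printed. Each sequence is in lower case, 5′ to 3′ on the strand of its gene, with every CpG dinucleotide in capitals.
Fpgs, chr2:32694176-32694425, minus strand: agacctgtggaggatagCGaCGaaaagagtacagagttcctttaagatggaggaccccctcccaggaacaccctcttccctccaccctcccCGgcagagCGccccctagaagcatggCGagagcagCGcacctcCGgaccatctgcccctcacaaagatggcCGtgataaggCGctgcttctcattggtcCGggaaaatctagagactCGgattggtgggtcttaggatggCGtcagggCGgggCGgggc
Zbtb38, chr9:96719446-96719573, minus strand: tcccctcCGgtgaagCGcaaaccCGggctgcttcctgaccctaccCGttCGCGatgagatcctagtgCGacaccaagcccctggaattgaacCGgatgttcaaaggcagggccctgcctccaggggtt
Zbtb38, chr9:96719851-96720068, minus strand: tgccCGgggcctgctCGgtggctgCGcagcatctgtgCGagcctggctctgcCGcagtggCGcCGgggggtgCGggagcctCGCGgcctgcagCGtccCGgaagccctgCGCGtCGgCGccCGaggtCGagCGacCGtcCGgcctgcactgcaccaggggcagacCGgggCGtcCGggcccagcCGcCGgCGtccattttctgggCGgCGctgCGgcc
Atp5d, chr10:80142149-80142314, plus strand: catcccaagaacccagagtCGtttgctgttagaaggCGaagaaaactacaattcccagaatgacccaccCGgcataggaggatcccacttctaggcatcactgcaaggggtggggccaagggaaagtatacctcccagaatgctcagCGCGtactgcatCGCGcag
Midn, chr10:80149432-80149681, plus strand: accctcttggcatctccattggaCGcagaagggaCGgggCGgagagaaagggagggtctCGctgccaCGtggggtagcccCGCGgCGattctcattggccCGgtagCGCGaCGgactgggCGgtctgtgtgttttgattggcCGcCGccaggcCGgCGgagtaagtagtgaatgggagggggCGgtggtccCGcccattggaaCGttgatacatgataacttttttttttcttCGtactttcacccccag
Cirbp, chr10:80167589-80167838, plus strand: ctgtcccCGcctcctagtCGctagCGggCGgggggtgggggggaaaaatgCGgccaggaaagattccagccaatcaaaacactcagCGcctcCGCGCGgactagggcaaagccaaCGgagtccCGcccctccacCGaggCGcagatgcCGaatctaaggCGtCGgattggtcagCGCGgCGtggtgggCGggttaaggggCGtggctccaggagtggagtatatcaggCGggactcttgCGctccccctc

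The stretches differ in CpG content. The Fpgs stretch holds 14 CpGs in 250 bp and lies under a peak with 24.9-fold enrichment in A and 15.5-fold in B, in the cluster at rank 4. The Atp5d stretch holds 7 CpGs in 166 bp, under the strongest peak of the cluster at rank 26 (22.5 in A and 15.02 in B), and the second Zbtb38 stretch holds 30 in 218 bp. Some windows overlap, so only 1 was kept for each run of overlapping windows of 300 bp. A window counted as under a peak wherever the peak overlapped it, even by a few bases. Its CpGs were counted over the whole window, not only over the part that a peak covers. The 51 windows left under clustered peaks had a median of 15 CpGs, against 19 in 747 windows under isolated distal peaks and 6 in 29061 windows in all.

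Of 12 short motifs searched on both strands, the Midn stretch held the NFI motif TTGGCA, from position 7, and the other 5 stretches held none. In the windows, motifs were counted over the whole window, so a match there can lie outside the peak, unlike in the printed stretches. Counted so, the NFI letters were in 11 of the 51 windows under clustered peaks (21.6%, interval 12.49 to 34.6%). They were in 11.5% of those under isolated peaks and in 14.5% of all windows. This was the 1 motif of the 12 for which the interval under clustered peaks left out the share under isolated peaks. The interval under isolated peaks, 9.42 to 14.0%, still overlapped it, and the share in all windows lay inside it. With 12 motifs looked at and no correction for that, NFI letters are not called enriched here. In the same order of clustered, isolated and all windows, the E-box CAGCTG stood at 25.5%, 16.5% and 16.6%, the AP-1 motif TGANTCA at 9.80%, 5.62% and 8.16%, the GATA motif AGATAA at 7.84%, 6.16% and 11.6%, and the C/EBP motif TTGCNNAA at 11.8%, 10.04% and 11.04%. Below the share under isolated peaks were the ETS motif GGAAGT at 27.5%, 28% and 23.3%, the TEAD motif GGAATG at 11.8%, 13% and 14.9%, the RUNX motif TGTGGT at 9.80%, 11.6% and 17.3%, and the nuclear receptor motif AGGTCA at 11.8%, 12.9% and 16.4%. So were the homeobox motif TAATTA in 1 of 51 windows, 2.81% and 5.58%, the forkhead motif TGTTTAC in 1 of 51 windows, 3.75% and 3.65%, and the CTCF motif CAGGGGGC, in 0 of 51 windows (interval up to 7.0%), 3.88% and 2.84%. A match shows the letters alone, not binding.

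Long chains were rare. Of the distal replicated peaks, 8466 stood alone, and 5051 were in chains of 2 or 3. Among the clusters, 139 had 4 peaks, 61 had 5, 26 had 6, 6 had 7, 2 had 9 and 2 had 11. The median cluster spanned 22 kb (range 5.30 to 55.6 kb), and all spans together covered 5.46 Mb. The median gap inside a cluster was 6111 bp, and 117 of 863 gaps were under 1 kb. The size limit cuts through a continuum: 505 chains of 3 lay just outside it, of which the highest sums in A were 53.9 at Arap1 and 52.9 at Eml1. Just inside it, the chains of 4 ran in summed fold enrichment from 24.8 to 62.2, the highest at Gm10710 and Dchs2 and the lowest at Stk40 and Eva1b (24.8 in A and 27.9 in B) and at Mta1 and Crip2 (26.3 in A and 28.2 in B).

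**Figure D1:**
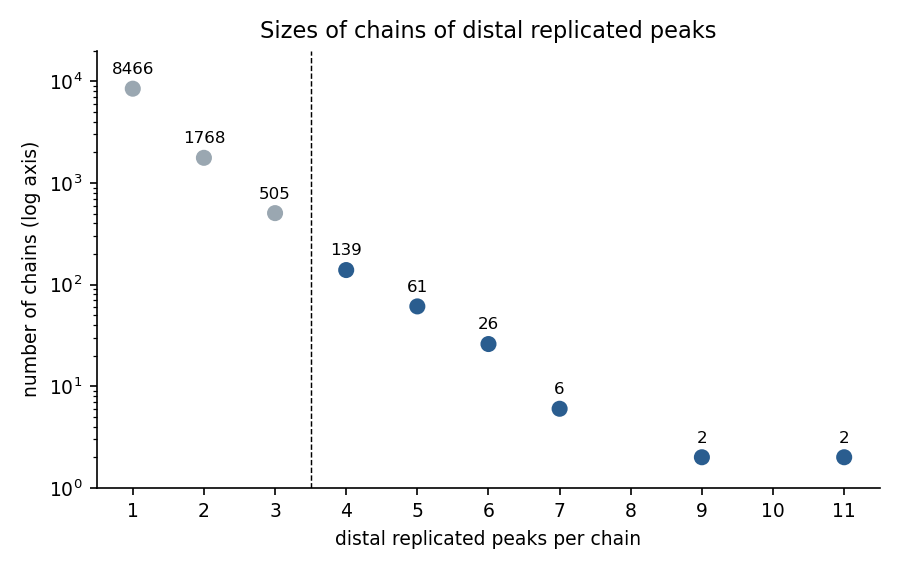
Number of chains (log axis) by the number of distal replicated peaks they hold; the dashed line marks the limit of 4 peaks, and blue points right of it are the clusters. Counts fall from 139 chains of 4 peaks to 2 chains of 11.

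The rank order was similar in both replicates. Summed fold enrichment had a median of 47.8 in A (24.8 to 126) and of 42.1 in B (27.2 to 94.9). Over the 236 clusters the Spearman correlation of the sums was 0.858, and that of the mean per peak was 0.711, as a description; both lists describe the same peaks, and the number of peaks enters both sums (its own correlation with the sum in A was 0.679). Of the 20 highest clusters in A, 16 were among the 20 highest in B, and these 20 held 13.7% of the summed enrichment. The strongest peak was the same in A and B in 133 clusters. Within a cluster the strongest peak exceeded the weakest by a median of 1.93 times in A and 1.85 times in B. For 20 members, in 10 clusters, the same entry of B was counted under more than one peak of A, and with each entry of B counted once the correlation of the sums was 0.843.

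**Figure D2:**
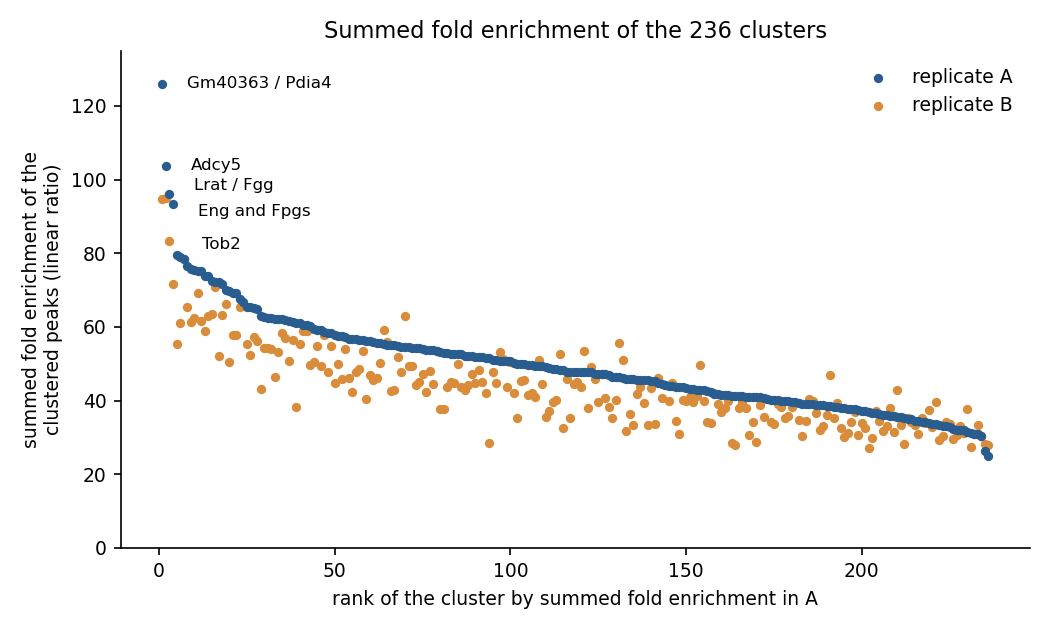
Summed fold enrichment (linear ratio) of the 236 clusters in A (blue) and B (orange), ordered by the sum in A. The 4 highest clusters stand above 90 in A, and Adcy5 has the highest sum in B, 94.9.

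At rank 1 was a run of 11 peaks between Gm40363 and Pdia4, which encodes a protein disulfide isomerase of the endoplasmic reticulum (chr6:47740115-47788542, intergenic). The sum was 126 in A and 94.8 in B. Its first 8 peaks had 10.7 to 16.5 in A and 7.25 to 12.9 in B, and their starts were 4264 to 5598 bp apart. Summits of A and B under these 8 peaks were 2 to 7 bp apart, against a median of 26 bp over all clustered peaks. The other 3 peaks were lower, with 6.55 to 7.19 in A and 6.28 to 7.07 in B. In B, 2 of these 3 share the same entry, and with each entry counted once the sum in B was 88.5. The span holds the annotated Y RNA genes Rny3 and Rny1 and the lncRNAs Gm52861 and Gm52862. Whether the even spacing reflects repeated DNA was not tested, since no genome sequence was used here.

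Adcy5, which encodes an adenylyl cyclase that makes cyclic AMP, held the cluster at rank 2 (chr16:35169557-35225120), the widest of all at 55.6 kb and the highest in B. All 11 peaks lie in the gene body, with 6.19 to 11.0 in A (sum 103.7) and 7.08 to 11.6 in B (sum 94.9). No peak dominated, and the strongest held 10.6% of the sum in A. Neither end of Adcy5 had a replicated peak.

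The cluster at rank 3 lay between Lrat, whose enzyme esterifies retinol for storage, and Fgg, which encodes the gamma chain of fibrinogen, a hepatocyte product. It spanned chr3:82946421-82982209, 42.4 kb from Lrat and 25.5 kb from Fgg, and was at rank 3 in B too. Its strongest peak, at chr3:82980802-82981173, had 18.7 in A and 17.7 in B. The next in A, at chr3:82971021-82971440, had 18.3 in A and 12.1 in B. A group of 3 peaks within 1.5 kb, beginning at chr3:82959128-82959475, had 7.51, 9.51 and 12.2 in A and 6.07, 7.51 and 13.1 in B. The other 4 had 6.18 to 9.72 in A and 6.12 to 8.44 in B. The lncRNA gene Gm30097 (chr3:82981465-83008415) reaches into the span just past the strongest peak. Of the 9 peaks, 2 lie within 1 kb of a noncoding gene end, which the limit on protein-coding gene ends lets in. Lrat had a replicated peak at a gene end and Fgg had none. A position between the genes does not show which of them a peak acts on, and whether reads at Lrat itself came from the native locus or from the Lrat-cre transgene cannot be told apart. How much DNA around Lrat the transgene carries is unknown here, so this limit may extend to the cluster. Its first 6 peaks, at 6.18 to 12.2 in A, had a −log10 q in A of 22.99 to 73.8. Its last peak, at 6.63, had 13.7. At rank 8, peaks at 7.72 and 11.8 had 13.5 and 20.2, and at rank 1 a peak at 10.8 had 39.4. What the transgene adds to the cluster at rank 3 was not tested.

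Eng, which encodes endoglin, a co-receptor for TGF-beta and BMP ligands, and the adjoining folate gene Fpgs shared the cluster at rank 4 (chr2:32655836-32694435, rank 5 in B). From low to high coordinate its 6 peaks had 9.05, 12.8, 9.29, 17.6, 19.9 and 24.9 in A, and 8.56, 10.5, 8.28, 13.0, 15.8 and 15.5 in B. The 3 peaks at the Fpgs side were the higher ones in both replicates. The last of them covers the Fpgs start printed above, which RefSeq places inside the annotated gene and which therefore passed the 1 kb limit on gene ends.

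**Figure D3:**
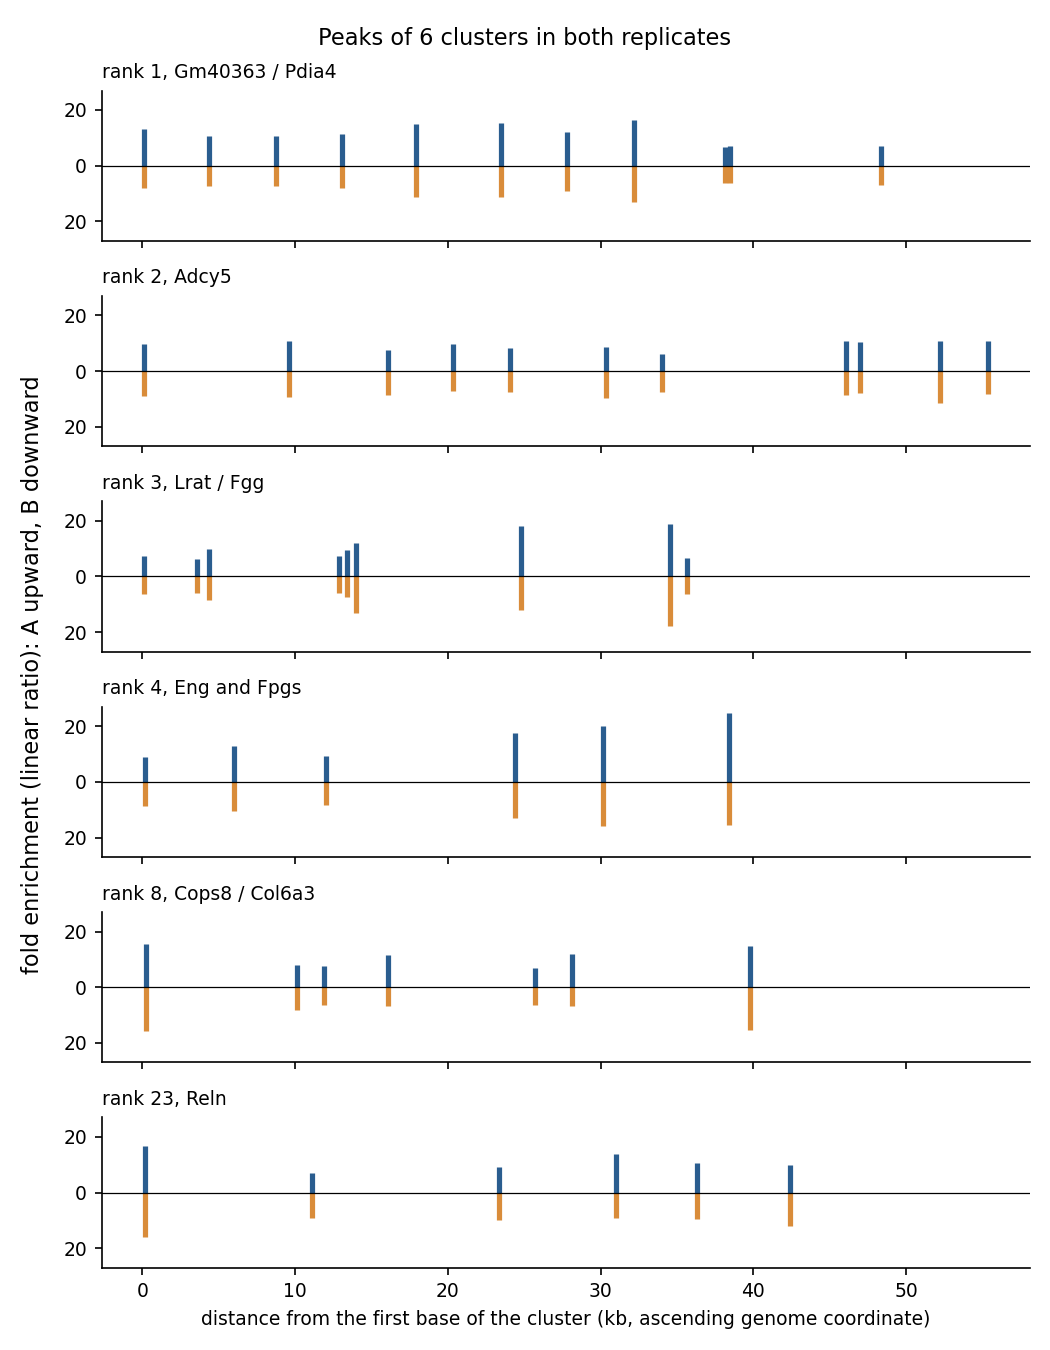
Fold enrichment (linear ratio) of every peak in 6 clusters, A upward in blue and B downward in orange, against distance in kb from the first base of the cluster. The first 8 peaks at rank 1 are evenly spaced, the 11 peaks in Adcy5 are of like height, and the highest peaks of the Eng and Fpgs cluster lie at its right end.

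The other high-ranking clusters neighboured genes of many kinds. At rank 8 the nearest genes were Cops8, a subunit of the COP9 signalosome, at 37.5 kb and Col6a3, a chain of type VI collagen, at 76.1 kb, and the cluster had 7 peaks at 7.09 to 15.6 in A and 6.25 to 15.6 in B. P4ha1, whose product hydroxylates prolines in collagen, flanked the cluster at rank 9 at 12.2 kb, with Sowahc at 39.3 kb on the other side. There 1 peak, at chr10:59310749-59311046, had 19.4 in A and 6.62 in B, while the other 6 were within 7.55 to 11.4 in A and 7.69 to 12.4 in B. Notch1, the receptor of a juxtacrine pathway, and Egfl7, a secreted vascular protein, flanked the cluster at rank 11 (sum 75.3 in A and 69.1 in B). The cluster at rank 18 lay 97.6 kb from Nxnl2 and 109 kb from S1pr3, a receptor for sphingosine 1-phosphate. Cerk, the ceramide kinase gene, held 2 of the 6 peaks at rank 10, and the strongest, with 23.3 in A and 14.2 in B, lay outside it.

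Zbtb38, which encodes a zinc finger protein that binds methylated DNA, held the cluster at rank 7 (78.5 in A and 78.4 in B, rank 4 in B). Its strongest peak had 22.6 in A and 21.4 in B, and the 2 peaks at the starts printed above were weaker, with 8.70 and 7.61 in A and 7.49 and 9.38 in B. Tns1, which encodes the adhesion protein tensin, had 9 peaks at 4.35 to 11.0 in A and 5.65 to 8.54 in B. Fosb, an immediate early transcription factor gene, was at rank 16 (72.3 in A and 70.9 in B, rank 6 in B), with 1 of the 5 peaks in its body. Tob2, an antiproliferative gene of the BTG and TOB family, was overlapped at rank 5 by a span of 5 peaks at 13.6 to 21.1 in A and 9.32 to 13.9 in B. Of these, 1 peak lay in the gene, with 13.6 in A and 12.9 in B. Actb, the cytoplasmic actin gene, and Fscn1, which encodes the actin-bundling fascin, flanked 5 peaks at 8.61 to 15.8 in A and 7.09 to 12.1 in B. Also named by the 20 highest ranks were Hs3st3b1, a heparan sulfate sulfotransferase gene, Tnfrsf21, a death receptor gene, and Mreg, Pecr, Gm29958, Adgrf1, Gm5148, Zcchc24, Cstad and 1700001O22Rik. Long chains at lower ranks were those of 7 peaks in Zbtb16, a zinc finger repressor gene, at rank 24 (66.8 in A and 65.9 in B), in Dennd2a at rank 68, and on chromosome X at rank 77 (53.6 in A and 48.1 in B). The last lies wholly within the lncRNA gene Firre, and its nearest protein-coding genes are Olfr1324 at 168.6 kb and Stk26 at 220.9 kb. Some places were far apart between replicates: Tob2 was at rank 5 in A and 35 in B, the cluster between Cstad and 1700001O22Rik at 17 and 50, and the one between Actb and Fscn1 at 20 and 56. Outside the naming rule and chosen after values were seen, Wt1, the mesothelial and stellate transcription factor gene, lay 26.6 kb from the cluster at rank 22, which overlaps Them7, and Spry1, an antagonist of receptor tyrosine kinase signalling, was overlapped by the one at rank 184 (39.1 in A and 34.6 in B) and lay 76.0 kb from the one at rank 14.

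Seen against the peaks that stand alone, the clustered peaks did not have higher fold enrichment. Fold enrichment in B, which the ranking did not use, had a median of 8.72 over the 1099 clustered peaks, 9.09 over the chains of 2 or 3 and 9.74 over the 8466 isolated peaks. In A the medians were 10.1, 10.2 and 11.3 in the same order. The ratio of clustered to isolated peaks was thus 0.895 in B and 0.890 in A. The −log10 q in A went the other way. Its median was 20.2 over clustered peaks, and 18.6 both over chains of 2 or 3 and over isolated peaks. Among clustered peaks 7.37% (5.97 to 9.07%) were in the top 10% of all distal replicated peaks by fold enrichment in B, against 12.2% (11.5 to 12.9%) of isolated ones. Widths were alike, with medians of 264 bp for clustered and 257 bp for isolated peaks, as were the distances between the summits of A and B, at 26 and 27 bp. Peaks are not replicates of a condition, so these differences carry no test across samples.

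**Figure D4:**
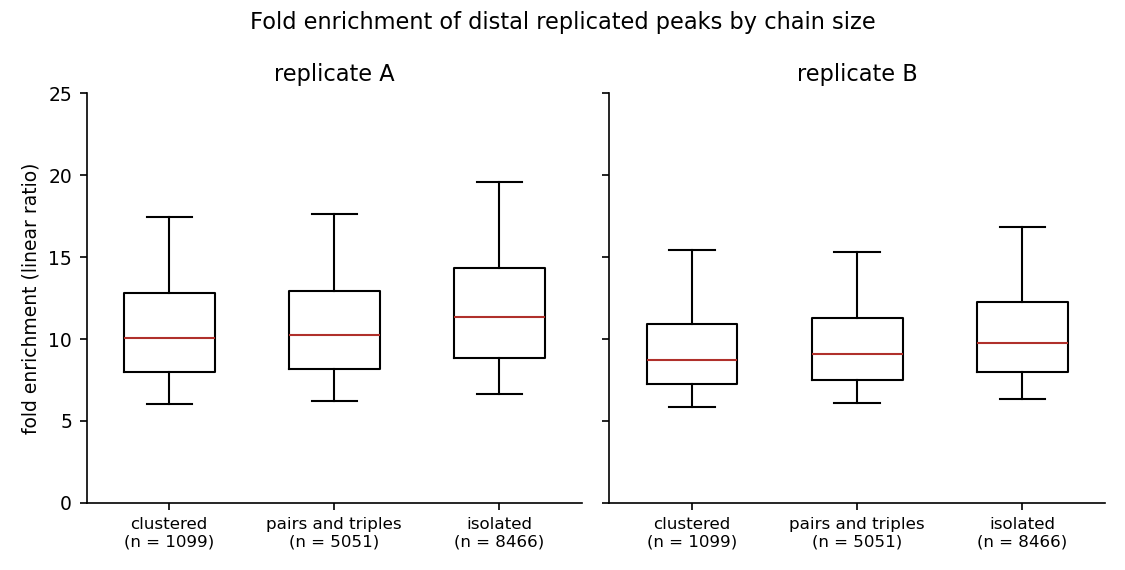
Fold enrichment (linear ratio) in A and in B of clustered peaks, of peaks in chains of 2 or 3 (the middle box), and of isolated peaks; boxes show quartiles with the median in red, and whiskers the 5th and 95th percentiles. In both replicates the clustered median (10.1 and 8.72) is below the isolated one (11.3 and 9.74).

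In position the clusters were spread over the bodies of protein-coding genes and the space between them. Of the 236, 91 lay with all peaks in 1 gene body, 96 were intergenic and 49 were mixed. Only protein-coding genes count here, so an intergenic cluster can lie in a noncoding gene, as the one within Firre does. Inside a gene body were 49.4% (46.5 to 52.4%) of clustered peaks and 54.9% (53.8 to 55.9%) of isolated peaks. A start window was overlapped by 4.86% (3.73 to 6.32%) of clustered peaks and 9.06% (8.45 to 9.70%) of isolated ones. The 72 clusters with all peaks in 1 gene body of known strand were centred at a median of 51.1% of the gene's length from its start, and 36 of them were in the 5′ part. The spans also held unreplicated distal peaks: 112 of the 11370 found in A alone, in 87 clusters, and 33 of the 4321 found in B alone, in 32 clusters, which is 20.5 and 6.05 per Mb of span. The spans were chosen for dense peaks in these same lists, and no rate outside them is given, so these densities are no comparison.

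A gene was said to have a cluster where its body overlapped the span, or where it was the nearest protein-coding gene on either side of a cluster that overlapped none. This held for 335 of 21887 protein-coding genes, or 1.53%, of which 156 were overlapped and 179 flanked. The share grew with gene length, from 0.713% in the shortest quartile to 2.98% in the longest. A replicated peak within 1 kb of an end was present at 77 of the 156 overlapped genes (49.4%, 41.6 to 57.1%) and at 107 of the 179 flanking genes (59.8%, 52.5 to 66.7%). The background over all protein-coding genes was 41.9%, and among genes with isolated distal peaks alone in the body it was 47.6% (45.6 to 49.5%). The interval of the overlapped genes thus takes in that of genes with isolated peaks, while the share at flanking genes lies above it. Flanking genes had a median length of 25.2 kb, overlapped genes 65.4 kb and genes with isolated peaks 56.8 kb. Among all genes of length quartile 3, with a median of 26.8 kb, the share with such an end peak was 51.1% (49.8 to 52.4%). The share at flanking genes is thus nearer to that of all genes of like median length, but still above it. Flanking genes were not themselves split by length, so what length accounts for was not tested. Of 15 genes with 2 clusters each, 3 held both in the gene body: Mylk, the myosin light chain kinase gene, at ranks 93 and 192, Tanc1 at 21 and 212, and Sh3pxd2a at 112 and 171.

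Genes of stellate cells were among those with a cluster. In the list of hepatic stellate identity, 4 of 23 genes had a cluster (17.4%, 6.98 to 37.1%), against 1.53% of all protein-coding genes. The median length in the list was 29.6 kb, against 17.2 kb over all protein-coding genes. With a cluster were Lrat at rank 3, Reln at 23, Dcn at 132 and Ank3 at 224. The limit on transgene reads stated above may extend to the cluster at Lrat. Reln encodes the secreted glycoprotein reelin, and its 6 peaks, all in the gene body, had 6.95 to 16.6 in A and 9.15 to 15.9 in B. Dcn, the gene of the proteoglycan decorin, lay 70.0 kb from its cluster of 5 peaks, in which the highest was a different peak in A (14.9, with 9.02 in B) than in B (15.3, with 7.89 in A). Ank3, which encodes an ankyrin, lay 103.1 kb from a cluster that is nearer to Cdk1, at 58.8 kb, and has 4 peaks at 6.47 to 10.6 in A and 6.71 to 9.46 in B. Members were chosen with earlier results of these data known, so the list is no independent evidence. A replicated peak within 1 kb of an end was present at 15 of the 23 stellate genes (65.2%), 4 of 18 hepatocyte genes (22.2%), 7 of 17 sinusoidal endothelial genes (41.2%), 0 of 13 Kupffer and myeloid genes and 41.9% of all genes; it was present at 75% of the housekeeping genes and of the TGF-beta and BMP genes and at 93.8% of the immediate early genes.

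Among stellate transcription factors 3 of 28 genes had a cluster (10.7%, 3.71 to 27.2%), against 1.53% of all protein-coding genes. Gata4, which encodes a GATA factor, had a cluster of 6 peaks, 5 of them in its body, at 6.39 to 9.46 in A and 7.43 to 9.97 in B. Rara and Rxra encode retinoid receptors, and with Lrat they made up the 3 of 16 retinoid genes (18.8%, 6.59 to 43%). All 3 are also in the stellate or the transcription factor list, so these lists are not separate results. Median gene length was 58.1 kb in the transcription factor list and 31.2 kb in the retinoid list, against 17.2 kb over all protein-coding genes. The 5 peaks at Rara ranged more widely, with 5.16 to 15.4 in A and 5.11 to 16.5 in B, than the 4 peaks of the cluster between Wdr5, at 17.7 kb, and Rxra, at 103.1 kb, with 8.47 to 13.9 in A and 8.11 to 14.3 in B.

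Of the vasoactive and pericyte genes 4 of 20 had a cluster (20%, 8.07 to 41.6%), against 1.53% of all protein-coding genes. They were Mcam, an adhesion molecule of pericytes and vessels, Mylk, the angiotensin receptor gene Agtr1a, and Abcc9, a subunit of ATP-sensitive potassium channels. In its higher cluster Mylk had 11.3, 13.1, 12 and 15.1 in A and 11.6, 10.4, 8.06 and 12.1 in B. The span that takes in Mcam also takes in C1qtnf5, Mfrp, Rnf26 and Cbl, and 0 of its 5 peaks lie in Mcam itself. Of the 4 peaks assigned to Abcc9, 1 lies in the gene. Median gene length was 66.3 kb in the vasoactive list and 43.6 kb in the matrix list, against 17.2 kb over all protein-coding genes. Both lists were chosen with earlier results of these data known, so they are no independent evidence. Of the matrix genes 4 of 18 had a cluster (22.2%, 9.0 to 45.2%), against the same 1.53% of all protein-coding genes. They were Col6a3, as a neighbour, and Col4a1, Sparc and Loxl1, whose bodies were overlapped. Col4a1, a chain of basement membrane collagen, held 6 peaks at 7.79 to 10.5 in A and 6.17 to 9.04 in B, and Sparc, a matrix-binding glycoprotein, had 4, 3 of them in its body, at 8.16 to 14.1 in A and 8.03 to 13.7 in B. Loxl1, a crosslinking oxidase of elastic fibres, had 4 at 8.19 to 12.9 in A and 8.15 to 12.4 in B.

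Lists of other cells and of general function had 1 gene or none. The TGF-beta and BMP list had Eng, 1 of 20. The sinusoidal endothelial list had Plvap, which encodes a protein of endothelial diaphragms, 1 of 17. In that span of 5 peaks, 3 lay in Gtpbp3 and 1 in Plvap, and the Plvap peak was the weakest, with 6.13 in A and 5.79 in B. The list of portal fibroblasts, smooth muscle and mesothelium had Myh11, the smooth muscle myosin heavy chain, 1 of 12, with a strongest peak of 16.8 in A and 16.6 in B. Fosb was 1 of 16 immediate early genes and Actb 1 of 12 housekeeping genes. No cluster was assigned to any of 18 hepatocyte, 13 Kupffer and myeloid, 11 lymphocyte, 10 cholangiocyte or 14 other-organ genes. With 1.53% of all genes having a cluster, about 1 of these 66 genes would have one at the background share, so 0 is not a result about these lists.

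**Figure D5:**
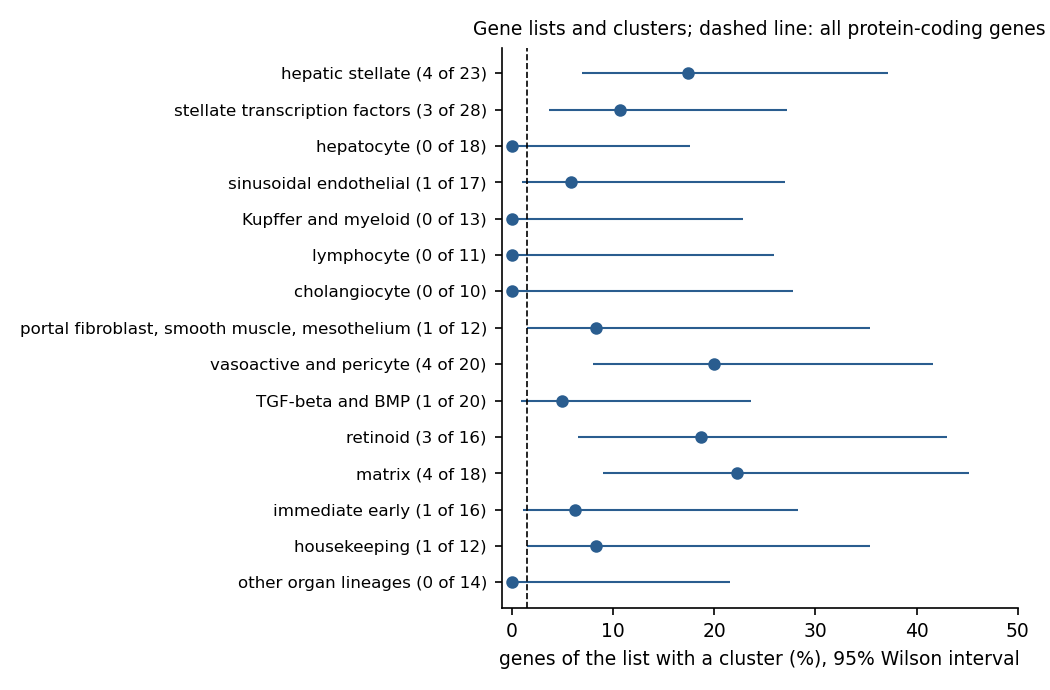
Share of each gene list with a cluster (%, points) with 95% Wilson intervals (lines, counting error only); the dashed line is the 1.53% of all protein-coding genes. Intervals of the stellate, stellate transcription factor, vasoactive, retinoid and matrix lists lie above the line, and those of the 5 lists with no gene reach 0.

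Noncoding genes near the peaks differed by class. Within 1 kb of an snRNA gene end were 12 of 1099 clustered peaks (1.09%, 0.626 to 1.90%) and 8 of 8466 isolated peaks (0.0945%, 0.0479 to 0.186%). For tRNA genes the counts were 15 (1.36%, 0.829 to 2.24%) and 36 (0.425%, 0.307 to 0.588%). For lncRNA genes they were 71 (6.46%) and 575 (6.79%), for miRNA genes 4 (0.364%) and 22 (0.260%), and for snoRNA genes 0 (interval up to 0.348%) and 15 (0.177%). A gene was itself overlapped by fewer peaks: an snRNA gene by 6 clustered and 2 isolated peaks, and a tRNA gene by 12 and 28. The snRNA peaks came from 3 clusters and the tRNA peaks from 5, so they are not independent. At rank 6, 4 peaks between Mreg and Pecr each overlapped an snRNA gene, and 2 of these had 18.1 and 17.5 in A but 7.37 and 6.68 in B. At rank 117 all 4 peaks each overlapped a tRNA gene, with 7.98 to 13.4 in A and 6.88 to 10.8 in B. At rank 173 the genes n-TYgta1 and n-TYgta2 each lay under a peak. These clusters were chosen after their values were seen, and copies of such genes share sequence, so the position of their reads is uncertain.

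Some clusters resembled each other in peak widths, one after another, to the base pair. On chromosome 4 the clusters at ranks 30 and 31 shared 5 consecutive widths, those at 41 and 42 shared 4, and those at 54 and 57 shared 4. The first peak had 17.6 in A at both rank 30 and rank 31, and 15.8 and 15.6 in B. The cluster at rank 34 on chromosome Y and that at 51 on chromosome X shared 3. These 8 clusters, 6 of them on chromosome 4, are reported as uncertain because near-identical copies of a region can split or share reads, and the sources used here do not give how reads that match several places were handled. Without them 228 clusters and 1063 peaks were left, with all 20 highest clusters among them.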

How the data were processed

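Each of the 2 ATAC-seq libraries has 1 peak list. The authors deposited, per entry, a fold enrichment (a linear ratio), the −log10 p and −log10 q, a score of 10 times the −log10 q cut to a whole number, and the summit offset. Per the submitters' processing notes, MACS2, HOMER, bedtools, Picard, SAMtools and STAR 2.7.0 were used, on mm10, with no role or order stated. The sources used here do not give a shift of reads for Tn5 or the cleaning of the lists. Peak names in B begin with a word for oil, although its label says control and chow; the label was followed.

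Values were computed with pandas 2.3.3, numpy 2.4.6 and scipy 1.17.1 under Python 3.11.15, and drawn with matplotlib 3.10.9. Positions count from 1, in mm10. Peaks were chained over gaps of up to 12.5 kb. Spans of genes and promoter windows were read from RefSeq tables of GRCm38.p6; all 233 list symbols matched. The fold enrichment in B of a peak is the highest among the entries of B that overlap it. Fold enrichment is unscaled between libraries. The members and lists were chosen with earlier results of these data known. The genes named are those of the 20 highest clusters, the 10 with most peaks, the 5 longest, the 3 highest and 3 lowest of 4 peaks, and up to 4 per gene list. Chaining was checked on simulated data. No test was run, since 1 group has no contrast and peaks and genes are not replicates. The motif search planned for the peaks was not run, as no genome sequence was used here; start windows were searched instead, with 1 window kept per run of overlapping windows.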

Additional observations from a re-analysis of the deposited data

How the results depend on the processing

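The number of clusters (236, with 1099 peaks) follows the chaining rule. A gap of 5 kb left 13 clusters of 54 peaks, and a gap of 25 kb gave 625 of 3302. At least 3 peaks gave 741 of 2614, and at least 6 gave 36 of 238. Among entries past the median −log10 q of their list there were 13 of 59, and with the 20000 strongest entries 39 of 176. The clustered share (7.52%) was 0.369%, 22.6%, 17.9%, 1.63%, 1.04% and 2.25% under these 6 settings in that order; it was 6.35% with reciprocal overlap of 50%, 6.79% with 2.5 kb from gene ends, 6.50% with the ends of all annotated genes and 7.03% without peaks at annotated starts, an alternative added after seeing the data. The median span (22 kb) was 8.66, 40.7, 14.1, 32.9 and 21.1 kb with gaps of 5 and 25 kb, at least 3 and 6 peaks and the 20000 strongest, and 21.1 kb on the coordinates of B. The ratio of clustered to isolated fold enrichment in B (0.895) stayed below 1 in each setting run: 0.813, 0.925, 0.904, 0.878, 0.835 and 0.852 under the 6 settings above and 0.910 without annotated starts. The rank correlation (0.858) was 0.819, 0.80, 0.815 and 0.902 with a gap of 5 kb, at least 3 and 6 peaks and the 20000 strongest. Stellate genes with a cluster (4) numbered 0, 7, 8, 2, 1 and 1 under the 6 settings.

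Leaving out 1 replicate, and so the need for replication, gave 440 (without A) to 913 (without B) clusters of 2080 to 4697 peaks, shares of 10.9 to 18.1%, spans of 21.2 to 22.4 kb and 5 to 8 stellate genes. Of the 20 highest clusters 17 were still overlapped with at least 6 peaks, 10 with the 20000 strongest, 4 above the median −log10 q and 2 with a gap of 5 kb. Among the 20 highest under the changed setting were only 5 of them with a gap of 25 kb, 7 without replicate B and 10 without replicate A, so the genes named by rank depend on these choices. No paired analysis was possible because there is only 1 group. Read depth is unknown, and what it limits was not tested beyond the drop in clusters with fewer entries per list.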
